A study of Homo sapiens with 52 samples.

Results

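The replication-dependent histone genes were taken as every row of the expression tables whose gene name begins with HIST1H, HIST2H, HIST3H or HIST4H, which gave 73 of the 27043 rows. They fall into 56 rows of the HIST1 cluster on chromosome 6, 13 of HIST2 and 3 of HIST3 on chromosome 1, and the single HIST4 row on chromosome 12. By protein they comprise 6 linker histone H1 rows, 18 H2A rows, 20 H2B rows, 14 H3 rows and 15 H4 rows. These genes supply the histones that package newly copied DNA. Their mRNAs are made in quantity in S phase and, unlike nearly all other mRNAs, end in a conserved stem-loop instead of a poly-A tail. The stem-loop is bound by SLBP, and a minority of transcripts, known from resting and differentiating cells, reads past it to a downstream poly-A signal. Because the libraries were poly-A selected, the values below report the polyadenylated forms, and how the stem-loop forms behaved was not measured.

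The samples were cells of a rhabdomyosarcoma line that carries the PAX3-FOXO1 fusion (FP-RMS). The cell-line label reads RH4 throughout, whereas the titles of the 44 screen samples read RH41, so which of these 2 FP-RMS lines the screen used cannot be told from the labels. The screen held 20 compounds given for 6 h at a high and a low dose 10-fold apart, with 1 sample per dose, and 4 DMSO samples, a pair at 0.2% (matching the high doses) and a pair at 0.1% (matching the low doses). LAQ824 (an inhibitor of histone deacetylases, HDACs), Cpd50 (Jumonji demethylases) and GSKJ4 (JMJD3/UTX) were given at 5 and 0.5 µM. The other 17 compounds were given at 10 and 1 µM: Bromosporin (bromodomains), SGC-CBP30 (the CREBBP/EP300 bromodomain), WT161 (HDAC6), MC1568 (HDAC4/5), OJI-1 (HDAC8), Merck60 (HDAC1/2), EZ-005 (EZH2), UNC1999 (EZH1), GSKLSD1, LSD-519 and LSD-690 (LSD1), PFI-2 (SETD7), SGC0946 (DOT1L), UNC-1215 (L3MBTL3), UNC0638 (KMT1C), PFI-3 (SMARCA4) and Trametinib (MEK1/2). Separately, RH4-titled cells received 1 µM N1302 (HDAC) for 6 h or 1 µM entinostat (HDAC1/2/3) for 1, 6 and 24 h, each with 1 sample and 1 sample of 0.1% DMSO of the same time. The screen asked how inhibition of the histone acetylation axis (7 compounds) compares with inhibition of the methylation axis (11 compounds), with PFI-3 and Trametinib in neither.

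Whole reads recovered from the tables numbered 5737939 to 41415071 per sample. Of 12 FP-RMS marker genes, 11 were at 1 TPM (transcripts per 1000000, a level per transcript length) or more in all 4 screen DMSO samples, and none of 6 leukocyte, endothelial and epithelial markers was, their summed level being 0.317 to 0.664 TPM in DMSO and 0.142 to 1.66 TPM over all samples. The FP-RMS markers summed to 4170 to 4350 TPM in DMSO and 1310 to 4440 TPM over all samples, and limma called 5 of the 12 down with Bromosporin (9.18% of all genes were called down) and 7 down and 1 up with LAQ824 (11.7% down). Their part in the histone results was not tested. Replicate 1 of each DMSO concentration was run on one flow cell and replicate 2 on another, and once the flow cell was allowed for, the pair differed by 1.03 times the counting noise, that is, within sampling noise, so the 4 DMSO samples may hold only 2 independent ones. With each pair averaged to 1 sample (added after the data were seen), Bromosporin had 32 and LAQ824 14 members called, and calls that ended are given as such. In 3 libraries (Bromosporin, Merck60 and PFI-2 at the high dose) 72.2 to 76.4% of the read numbers from 1 to 10 were even, against 37.9 to 42.1% in the other 49. Counts of called members for compounds against DMSO were also taken without these libraries. The contrasts between compounds and between axes are given with them included. The high-dose values of the 3 compounds come from these libraries. The 28 samples of 14 compounds that shared 1 flow cell, Bromosporin and SGC-CBP30 among them, had no DMSO sample on it.

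The stem-loop was found beside the row in the hg19 sequence for all 67 members that could be placed on 1 strand, 3 of them placed by the stem-loop itself. The other 6 rows, all of HIST2, were duplicate copies that share their sequence. The loop took 11 forms, of which the commonest, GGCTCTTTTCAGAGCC, was carried by 37 members. In 61 of the 67 the row stopped within 100 bases of the stem-loop, so that reads from a longer, polyadenylated form were counted only over the part they share with the stem-loop form. The rows of HIST1H2BD, HIST2H2BE and HIST2H2BF ran 12746, 1728 and 29195 bases past it. The hexamer AATAAA, the usual poly-A signal, lay within 20 bases after the stem-loop in HIST1H1C and HIST1H2BD alone, starting 12 bases after it in both, and within 300 bases in 7 members. HIST1H1C and HIST1H2BD were also the rows with the highest and second highest DMSO level, which was noticed after the values were seen and not tested. The sites below, 5′ to 3′ on the coding strand with the stem-loop in capitals, show both of these, the commonest loop in HIST1H2BG, the GC-richer stem of an H4 gene, and the rarer form in HIST1H3E. The rows lie at chr6:26055968-26056699 (HIST1H1C, minus strand), chr6:26158349-26171576 (HIST1H2BD, plus), chr6:26216429-26216872 (HIST1H2BG, minus), chr6:26285354-26285727 (HIST1H4H, minus) and chr6:26225383-26225844 (HIST1H3E, plus).
HIST1H1C: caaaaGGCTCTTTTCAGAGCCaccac
HIST1H2BD: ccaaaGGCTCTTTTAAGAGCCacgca
HIST1H2BG: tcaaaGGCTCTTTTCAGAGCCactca
HIST1H4H: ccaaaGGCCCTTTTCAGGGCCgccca
HIST1H3E: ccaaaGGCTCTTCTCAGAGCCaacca

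Many H2A and H2B genes stand head to head and share the DNA between their starts. In 6 such pairs both genes had a mean of at least 1 TPM in DMSO. The DNA is shown for the 4 of them that hold one of the 12 highest rows in DMSO and are at most 300 bases long, a choice made after the values were seen, read on the plus strand of hg19, with capitals for the octamer ATTTGCAT (the site of octamer-binding POU factors in H2B promoters), CCAAT and TATAAA on either strand.
HIST1H2BG/HIST1H2AE chr6:26216873-26217147: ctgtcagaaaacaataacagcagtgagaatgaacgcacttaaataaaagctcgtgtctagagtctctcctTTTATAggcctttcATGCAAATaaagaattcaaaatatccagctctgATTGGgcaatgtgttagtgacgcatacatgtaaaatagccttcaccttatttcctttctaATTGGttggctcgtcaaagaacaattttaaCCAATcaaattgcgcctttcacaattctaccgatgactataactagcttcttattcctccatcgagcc
HIST2H2BE/HIST2H2AC chr1:149858233-149858524: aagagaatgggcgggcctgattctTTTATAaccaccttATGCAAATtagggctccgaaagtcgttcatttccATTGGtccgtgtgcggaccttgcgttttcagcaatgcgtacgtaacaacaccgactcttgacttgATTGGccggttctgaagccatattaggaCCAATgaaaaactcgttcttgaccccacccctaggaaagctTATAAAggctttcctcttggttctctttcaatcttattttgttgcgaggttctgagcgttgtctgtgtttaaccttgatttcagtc
HIST3H2A/HIST3H2BB chr1:228645561-228645807: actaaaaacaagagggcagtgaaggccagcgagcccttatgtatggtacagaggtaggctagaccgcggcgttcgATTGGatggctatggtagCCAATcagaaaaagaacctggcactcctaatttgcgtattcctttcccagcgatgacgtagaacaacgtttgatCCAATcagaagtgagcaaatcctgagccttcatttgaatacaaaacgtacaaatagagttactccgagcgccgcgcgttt
HIST1H2BC/HIST1H2AC chr6:26124133-26124372: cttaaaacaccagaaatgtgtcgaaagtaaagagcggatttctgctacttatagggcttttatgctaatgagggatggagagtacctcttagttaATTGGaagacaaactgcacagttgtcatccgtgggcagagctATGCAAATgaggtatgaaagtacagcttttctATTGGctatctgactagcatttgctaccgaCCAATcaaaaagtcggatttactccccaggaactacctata
The octamer was present between 3 of these 4 pairs and absent, as spelled, between HIST3H2A and HIST3H2BB. Across RefSeq promoters of GRCh38.p14, each 300 bases long and searched on both strands, 59 entries carried the symbol of a member. Entries were counted here, not genes. The octamer was in 78.6% of 14 H2A and 72.2% of 18 H2B promoters, in 8.3% of 12 H3 promoters and in none of 6 H1 or 9 H4 promoters, against 1.8% of all 35116 promoters. CCAAT was in every H1, H2A, H2B and H3 promoter searched but in only 22.2% of the H4 promoters, with 34.6% over all promoters. TATAAA was in 67.8% of the members' promoters against 11.5% of all.

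In all 52 samples 13 rows were listed at 0, namely HIST1H1A, HIST1H2AA, HIST1H2AG, HIST1H2AH, HIST1H2APS1, HIST1H2BJ, HIST1H4I, HIST2H2AA3, HIST2H2AA4, HIST2H3A, HIST2H3C, HIST2H4A and HIST2H4B. Of these, the 6 HIST2 rows are the duplicate copies above, and HIST1H4I lies inside the row of HIST1H2BK. In the first 450 bases of those 6 rows, 76.8 to 100% of the 50-base windows were found elsewhere in the genome. A listed 0 does not show that a gene was silent. H3F3A, a gene that dividing and resting cells alike use, was listed at no more than 0.203 TPM in any sample. Another 15 rows were above 0 somewhere but did not reach 1 TPM in 2 samples and were not tested (HIST1H2AD, HIST1H2AI, HIST1H2AJ, HIST1H2BA, HIST1H2BI, HIST1H2BK, HIST1H2BL, HIST1H2BM, HIST1H3C, HIST1H3G, HIST1H3I, HIST1H4F, HIST1H4G, HIST1H4L and HIST3H3). The remaining 45 were tested. In 26 of them the mean screen DMSO level was at least 1 TPM, and the other 19 entered only through higher values in treated samples, so that counts that bear on the group are given over the 26.

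The 73 rows together summed to 239.5 and 240.5 TPM in 0.2% DMSO and 231.3 and 225.3 TPM in 0.1% DMSO. H2B genes gave 36.5% of this sum, H2A 25.5%, H1 24.4%, H4 8.2% and H3 5.4%. The linker histone gene HIST1H1C was highest, at 51.6, 56.8, 61.8 and 54.3 TPM, and alone made up nearly all of the H1 sum. The H2B gene HIST1H2BD followed at 33.3, 31.2, 29.7 and 30.1 TPM, which did not overlap HIST1H1C. The H2A genes HIST1H2AC, at 21.2 to 27.0 TPM, and HIST3H2A, at 20.8 to 24.8 TPM, overlapped each other. Next came HIST2H2BE at 9.19 to 12.7, HIST1H2BC at 6.71 to 13.6, HIST1H2BH at 7.82 to 11.1 and HIST1H4H at 7.86 to 10.5 TPM, whose ranges overlapped, and HIST1H2BG at 5.52 to 9.06, HIST2H2AC at 2.79 to 6.97, HIST1H4E at 3.90 to 7.27 and HIST1H2BN at 3.29 to 5.82 TPM, which also overlapped. Between 0.2% and 0.1% DMSO limma called no member of the 45 and 0.0% of all 16359 genes, with 3 members at an unadjusted p below 0.05. Here and below, counts at an unadjusted p carry no share over all genes unless one is printed, so they are not read as results.

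Across the screen, the summed level of the histone rows was highest with Bromosporin, LAQ824 and SGC-CBP30. It was 1849.3 TPM with 10 µM Bromosporin and 683.0 TPM with 1 µM, 603.2 and 499.0 TPM with 0.5 and 5 µM LAQ824, and 576.0 TPM with 10 µM SGC-CBP30. With 1 µM SGC-CBP30 it was 196.4 TPM. All other treated screen samples lay between 152.1 TPM (1 µM PFI-2) and 285.5 TPM (10 µM WT161), and of these only WT161, 10 µM LSD-690 at 246.0 TPM and 1 µM Trametinib at 244.0 TPM lay above the DMSO samples. In the 10 µM Bromosporin sample H2B genes alone summed to 989.32 TPM, against 77.09 to 93.8 TPM in DMSO, and H2A genes to 471.08 TPM against 55.96 to 64.15 TPM. The map of differences shows these columns apart from the rest of the screen.

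**Figure D1:**
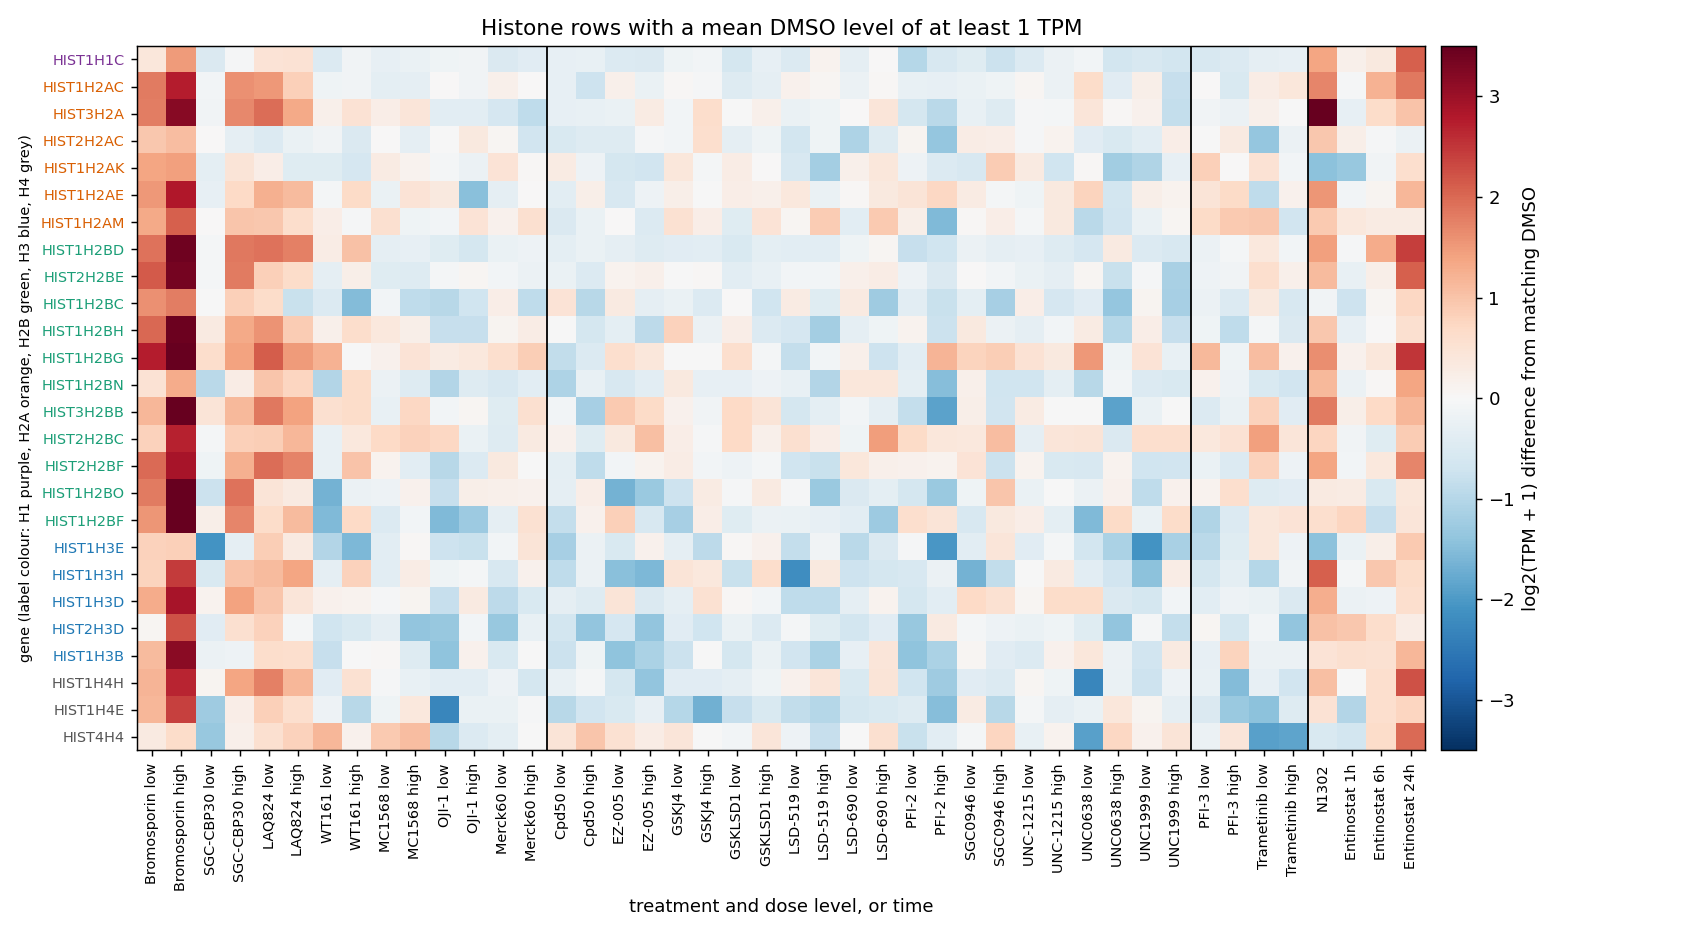
Difference in log2(TPM + 1) from the matching DMSO level for the 26 histone rows with a mean DMSO level of at least 1 TPM (vertical axis, grouped by histone type) in each treatment (horizontal axis, 1 sample per column). Vertical lines part acetylation-axis compounds, methylation-axis compounds, PFI-3 with Trametinib, and the separate N1302 and entinostat samples, and the colour scale ends at 3.5 in either direction, below the 4.09 of HIST1H2BF in the 10 µM Bromosporin column. The Bromosporin columns are red for all 26 rows.

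Bromosporin binds the acetyl-lysine pockets of many bromodomain proteins. In bulk samples such as these, a change in the kinds of cells present and a change in RNA per cell cannot be told apart. With both doses set against the 4 DMSO samples, 33 of the 45 tested rows rose and none fell (limma on log2(TPM + 1), adjusted p under 0.05 and a log2 change of at least 1), while 4.21% of all genes were called up. Among the 26 rows with DMSO expression, 21 rose, against 3.83% of the 13460 genes chosen in the same way. By type, these 21 were 6 of 6 H2A, 10 of 11 H2B, 3 of 5 H3 and 2 of 3 H4 rows, with HIST1H1C, the only H1 row among the 26, not called. By cluster, again over the 26, 15 of 18 HIST1, 4 of 5 HIST2 and both HIST3 rows rose, and HIST4H4 was not called (0.47, SE 0.446, adjusted p = 0.408).

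By the median of the rows with DMSO expression at 10 µM, H2B genes were furthest from DMSO (3.40), followed by H3 (2.46), H2A (2.42), H4 (2.38) and HIST1H1C (1.49). At 1 µM H2B genes were again furthest (1.83), but H3 genes came behind H2A and H4 (0.81 against 1.45 and 1.15), and each order rests on 1 sample. HIST1H2BG was at 5.83, 9.06, 5.52 and 6.37 TPM in the 4 DMSO samples, 45.5 TPM with 1 µM Bromosporin and 129.1 TPM with 10 µM. Both treated samples lay above every DMSO sample, and the fitted log2 change was 3.36 (SE 0.465, adjusted p = 5.4e-06). HIST2H2BE was at 10.9, 12.1, 12.7 and 9.19 TPM in DMSO and at 51.4 and 126.9 TPM with the low and high dose, a log2 change of 2.75 (SE 0.346, adjusted p = 2.39e-06). Repeats were sought in 50-base windows of at most 450 bases ending at the stem-loop. There 43.4% of the windows of HIST2H2BE occur elsewhere in the genome, as do 34.4% for HIST3H2BB and 27.9% for HIST2H2AC. For HIST2H3D, which was not called, 78.3% do. For HIST2H2BC, which is counted among the H2B rows called with Bromosporin, 100% do. HIST2H2BC is annotated as a pseudogene, as are HIST2H2BA and HIST1H2APS1. Over that stretch the values of these rows are less certain than those of HIST1H2BG, where none do. The 1728 bases of the HIST2H2BE row past the stem-loop were not searched. HIST1H2BD went from 29.7 to 33.3 TPM in DMSO to 114.6 and 350.0 TPM, from 148 to 208 reads to 374 and 2248 reads. HIST1H2BH reached 36.3 and 122.7 TPM, a log2 change of 2.71 (SE 0.371). HIST1H2BF, at 1.13 to 3.04 TPM in DMSO, was at 7.53 and 40.3 TPM, a log2 change of 2.81 (SE 0.583), which no longer passed without the 10 µM sample (1.67). In each of these genes the 10 µM sample was the highest of all 52 libraries.

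The largest fitted change of any member was that of HIST1H2BE, an H2B gene near the floor in DMSO. It was at 0.350, 0.280, 0.375 and 0.283 TPM in DMSO, each from 1 read, and at 5.16 and 29.97 TPM with the low and high dose. The fitted change of 3.39 (SE 0.464, adjusted p = 4.85e-06) is on the log2(TPM + 1) scale, which understates the change of so low a gene. The H2A gene HIST2H2AB, at 0 to 0.365 TPM in DMSO, was at 4.45 and 13.3 TPM (2.85, SE 0.349). HIST1H2BE and HIST2H2AB were tested only through treated samples, so their calls give no support to a rise of the group.

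Among H2A genes with DMSO expression, HIST3H2A was at 76.3 and 217.7 TPM with 1 and 10 µM Bromosporin (2.48, SE 0.359), and HIST1H2AC at 77.6 and 173.9 TPM (2.28, SE 0.331). HIST2H2AC moved less. Its DMSO samples spread from 2.79 to 6.97 TPM, both Bromosporin samples lay above them at 10.8 and 10.7 TPM, and its log2 change of 1.02 (SE 0.334, adjusted p = 0.0141) was the least of the 6 H2A rows. HIST2H2AC shares its upstream DNA, printed above, with HIST2H2BE, which differed from DMSO by 3.36 at 10 µM where HIST2H2AC differed by 1.09. The pair HIST1H2BG and HIST1H2AE differed by 3.97 and 2.81 at that dose, HIST3H2BB and HIST3H2A by 3.85 and 3.18, and HIST1H2BC and HIST1H2AC by 1.80 and 2.75. HIST1H2BO and HIST1H2AM differed by 3.53 and 2.08, and HIST1H2BN and HIST1H2AK by 1.29 and 1.45. The H2B gene was thus the further from DMSO in 4 of the 6 pairs.

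Of H4 genes, HIST1H4H was at 22.0 and 63.6 TPM against 7.86 to 10.5 TPM in DMSO (1.92, SE 0.448), and HIST1H4E at 9.91 and 33.2 TPM against 3.90 to 7.27 TPM (1.77, SE 0.548). HIST1H3B, an H3 gene, was at 4.75 and 18.2 TPM against 1.03 to 2.08 TPM (2.13, SE 0.380). Members that were not called included HIST1H3E (0.82, adjusted p = 0.127), HIST1H2BN (0.90, adjusted p = 0.079), HIST1H2BB (-0.00, adjusted p = 1.0) and HIST1H4B (-0.13, adjusted p = 0.729). HIST1H1C was at 77.3 and 153.7 TPM with 1 and 10 µM, above all DMSO samples, and its change of 0.95 (SE 0.192, adjusted p = 0.000279) passed the p threshold but not the fold. Other H1 rows were tested only through treated samples, so their calls give no support to a rise of H1 genes. HIST1H1D was at 0 to 0.588 TPM in DMSO and 2.24 and 4.24 TPM with Bromosporin, and HIST1H1E at 0.388 to 0.832 TPM and 2.22 and 8.87 TPM.

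At 10 µM, 24 of the 26 rows lay at least 2-fold above 0.2% DMSO (8.07% of all genes chosen in the same way), with a median log2 difference of 2.73 against -0.30 for all genes. At 1 µM, 18 of the 26 did against 0.1% DMSO (2.11% of all genes), with a median of 1.32. All 26 rows were above DMSO at each dose. Scaling the samples by median ratios moved the median of all genes at 10 µM by 0.23 and gave 35 rows called, while all genes called for both doses went from 689 up and 1501 down to 875 up and 1198 down. Without the 10 µM library, one of the 3 with mostly even low read numbers, 10 of the 26 rows were called up (18 of the 45, and 1.14% of all genes), or 9 (17 of the 45, and 1.08%) when all 3 such libraries were left out. These fits hold 1 Bromosporin sample, assumed to vary like the other groups. Set against the other compounds of its own flow cell in place of DMSO, Bromosporin had 25 of the 26 rows called up (36 of the 45, and 3.58% of all genes).

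**Figure D2:**
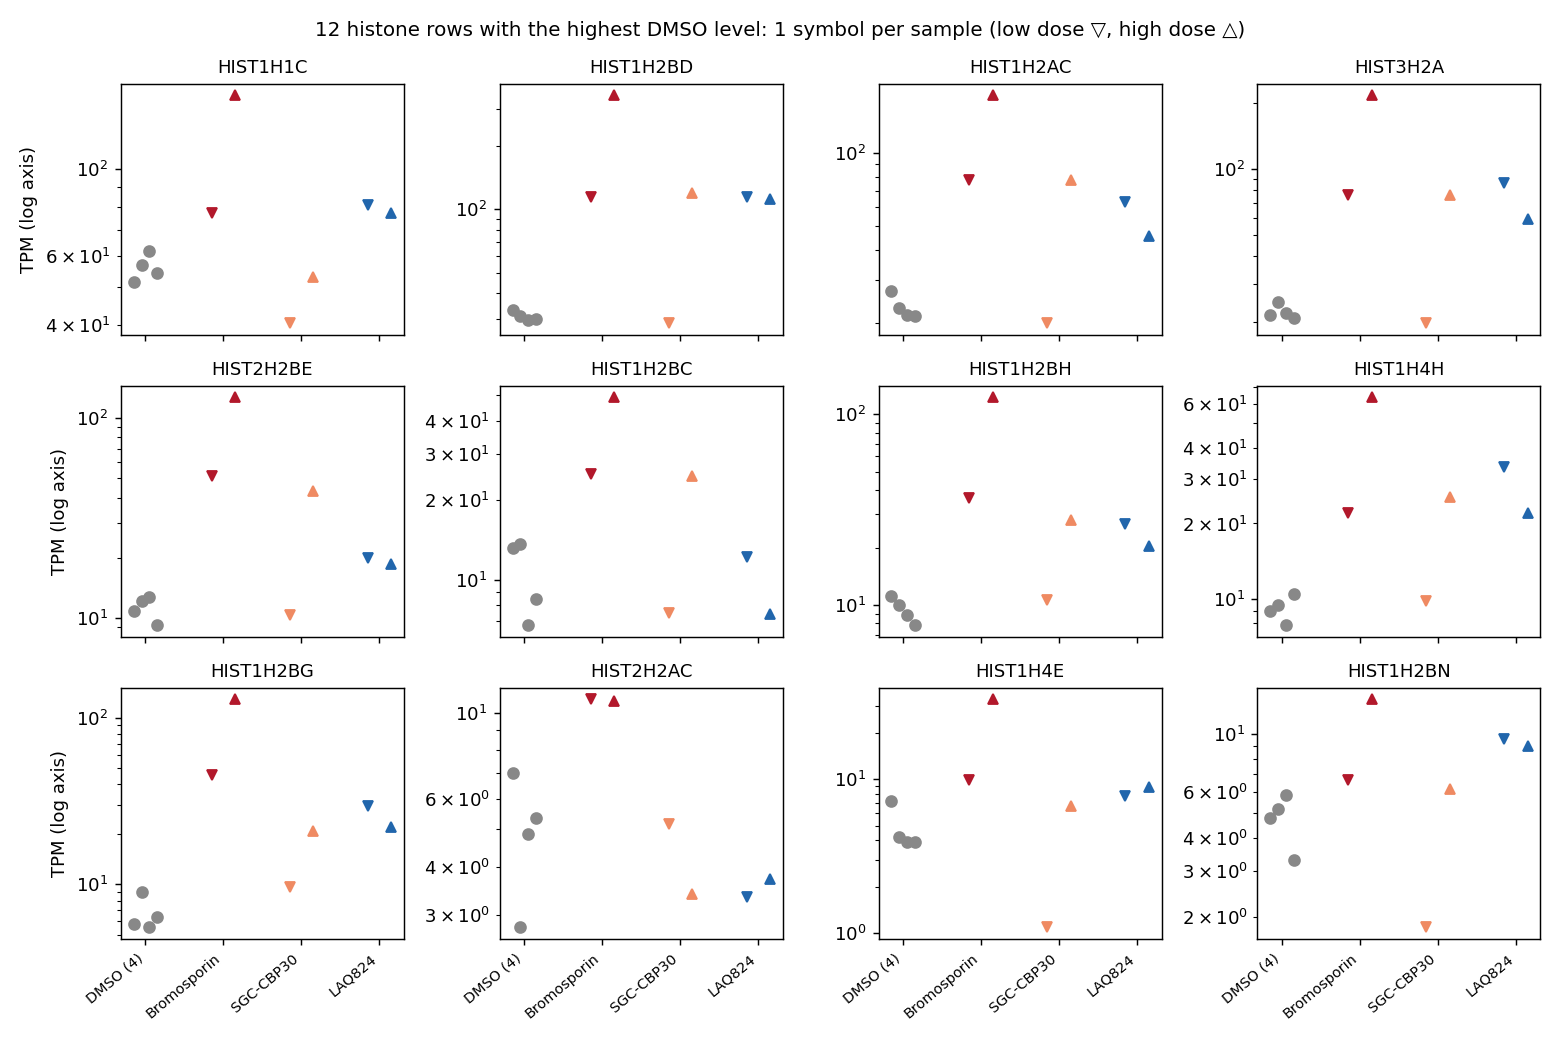
TPM (log axis) of the 12 histone rows with the highest DMSO level in the 4 screen DMSO samples (grey circles) and in 1 sample per dose of Bromosporin, SGC-CBP30 and LAQ824 (low dose, triangle down; high dose, triangle up). Both Bromosporin samples lie above all 4 DMSO samples in each of the 12 panels, and the SGC-CBP30 samples part by dose in most.

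SGC-CBP30 binds the bromodomains of the acetyltransferases CREBBP and EP300, and its doses were those of Bromosporin. With both doses together limma called none of its 45 members (1.92% of all genes, 26 up and 288 down), and limma-voom on whole reads called none. At an unadjusted p below 0.05 there were 9 members, a count without its share over all genes. Values at the doses, 1 sample each, stood apart. At 10 µM, 13 of the 26 rows were at least 2-fold above DMSO (1.95% of all genes), with a median of 0.99. At 1 µM none was (0.423%), and the median was -0.11. At least 2-fold below DMSO at 1 µM were 3 of the 26 rows. Over the genes tested these were 4 of the 45 rows and 199 of all 16359 genes. HIST1H2BD was at 119.4 TPM at 10 µM and 28.7 TPM at 1 µM, and HIST1H2AC at 77.3 and 19.8 TPM, the low dose below all 4 DMSO samples in both genes. HIST2H2BE was at 43.2 and 10.3 TPM and HIST3H2A at 76.1 and 19.8 TPM. HIST1H1C was at 53.0 TPM, inside the DMSO range, and at 40.5 TPM, below it. When the 1 µM sample was left out, 8 of the 26 rows were called up (9 of the 45, and 1.33% of all genes), in a fit that assumes the lone 10 µM sample to vary like the other groups.

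Over both doses Bromosporin lay above SGC-CBP30 in 26 of the 45 rows (limma contrast added after the data were seen), where 1.9% of all genes were called in that direction, and in 22 of the 26 rows with DMSO expression (1.68%). The difference was 2.34 for HIST1H2BG (SE 0.537, adjusted p = 0.0029), 1.87 for HIST2H2BE (SE 0.399, adjusted p = 0.00179) and 1.22 for HIST1H1C (SE 0.222, adjusted p = 0.000622).

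With LAQ824 the levels at the low dose were about as high as at the high dose or higher. Of the 45 tested rows 16 rose and none fell, while 14.0% of all genes were called up, and of the 26 with DMSO expression 10 rose (12.3% of all genes), namely 3 of 6 H2A, 5 of 11 H2B, 1 of 5 H3 and 1 of 3 H4 rows. Without the 0.5 µM sample, with the lone 5 µM sample assumed to vary like the other groups, 4 of the 26 rows were called (7 of the 45, and 13.3% of all genes). HIST1H2BD was at 115.1 and 111.6 TPM with 0.5 and 5 µM LAQ824, above the 29.7 to 33.3 TPM of DMSO, a log2 change of 1.83 (SE 0.360, adjusted p = 8.64e-05). HIST1H2BG was at 29.4 and 22.1 TPM (1.81, SE 0.465), HIST3H2A at 86.6 and 59.1 TPM (1.64, SE 0.359) and HIST2H2BF at 9.33 and 9.75 TPM (1.85, SE 0.404). The row of HIST2H2BF overlaps FCGR1A, and 76.6% of the windows in the 450 bases ending at its stem-loop occur at other loci. The 29195 bases of the row past the stem-loop were not searched, so that its value is uncertain. Of rows near the floor, tested only through treated samples, HIST1H1D was called at 3.03 and 2.95 TPM (1.68, SE 0.229) and HIST1H2BE at 3.73 and 2.63 TPM (1.65, SE 0.464). HIST1H2BC, by contrast, was at 12.2 and 7.41 TPM within the DMSO range (-0.07, adjusted p = 0.878), and HIST2H2AC at 3.34 and 3.71 TPM (-0.36, adjusted p = 0.371).

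At 0.5 µM and at 5 µM, 10 of the 26 rows were at least 2-fold above DMSO (13.6% and 12.5% of all genes), with medians of 0.90 and 0.78. LAQ824 and Bromosporin were set against the same DMSO samples. The LAQ824 samples ran on the flow cell that held DMSO replicate 2 of each concentration, the Bromosporin samples on another without DMSO. In a direct contrast of these compounds, compound and flow cell cannot be told apart. Bromosporin lay above LAQ824 in 16 of the 45 rows (4.51% of all genes in that direction), a contrast added after the data were seen that sets unequal doses side by side, and in 11 of the 26 (5.27%). These included HIST1H2BO (2.30, SE 0.537), HIST2H2BE (2.01, SE 0.399) and HIST1H2BC (1.78, SE 0.409, adjusted p = 0.000922). For HIST1H2BD the difference of 0.82 (SE 0.415, adjusted p = 0.117) and for HIST1H3H that of 0.39 (SE 0.480, adjusted p = 0.556) did not pass.

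**Figure D3:**
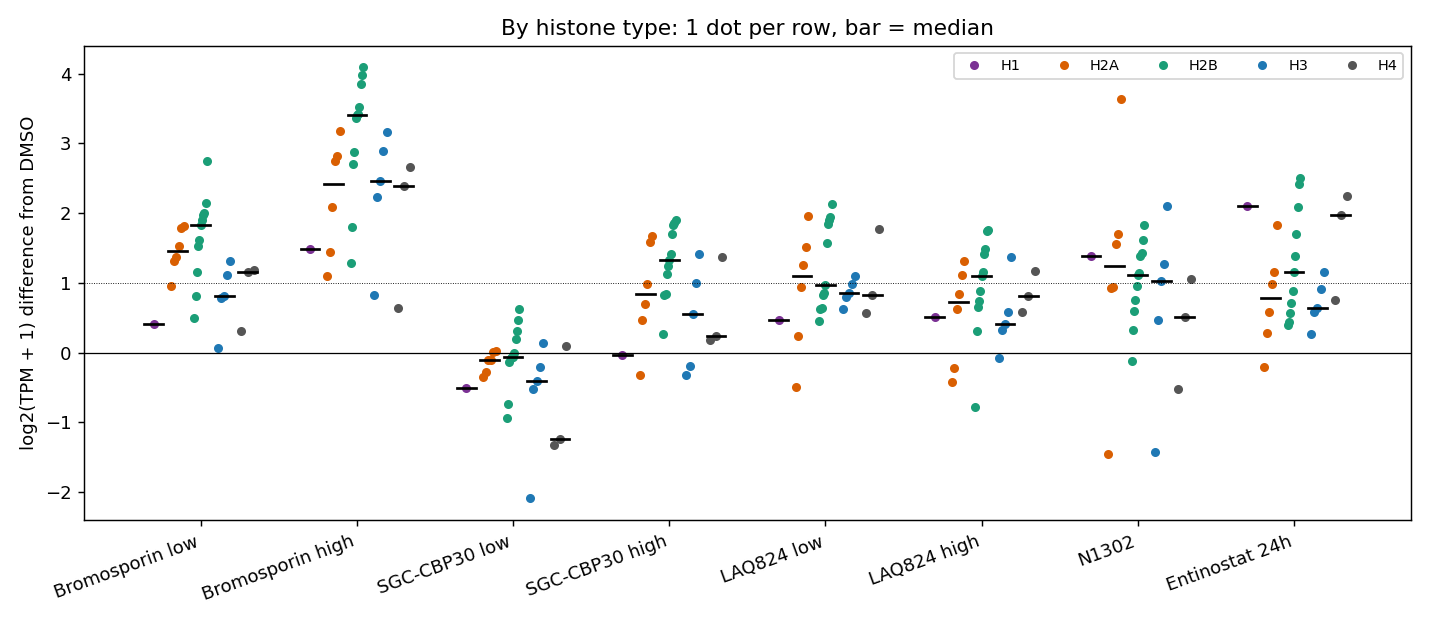
Difference in log2(TPM + 1) from the matching DMSO level (vertical axis) for the 26 histone rows with a mean DMSO level of at least 1 TPM, by treatment and coloured by histone type. Each dot is 1 row in 1 treated sample, bars are medians of a type, and the dotted line marks a 2-fold rise. The H2B median is the highest of the types at both Bromosporin doses (1.83 and 3.40), at 10 µM SGC-CBP30 (1.324) and 1 µM SGC-CBP30 (-0.06), and at 5 µM LAQ824 (1.102). It is not with 0.5 µM LAQ824 (0.967, H2A 1.095), N1302 (1.118, H2A 1.248 and the lone H1 row 1.39) or 24 h of entinostat (1.155, H4 1.977 and the H1 row 2.095).

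For the other 17 compounds few or no members were called. UNC0638, an inhibitor of the H3K9 methyltransferase KMT1C, had HIST1H2AL called up (1.24, SE 0.391, adjusted p = 0.0226; 1.3% of all genes were called up) and HIST1H4H called down (-1.26, SE 0.448, adjusted p = 0.0402; 3.1% were called down). HIST1H2AL, a row tested only through treated samples, was at 1.70 and 2.62 TPM with the low and high dose, from 2 and 3 reads, against 0 to 1.05 TPM in DMSO. HIST1H4H was at 1.07 TPM with the low dose, from 1 read, and at 7.68 TPM with the high dose, close to the lowest DMSO sample at 7.86 TPM. Both calls were lost when each DMSO pair was averaged, HIST1H2AL also without the high dose (1.02) or either DMSO replicate 1 (1.10), and HIST1H4H also under limma-voom, without any single DMSO sample and without the low dose (-0.23).

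Trametinib, an inhibitor of the kinases MEK1/2, had HIST4H4 called down (-1.88, SE 0.446, adjusted p = 0.00905; 0.831% of all genes were called down). HIST4H4 was listed at 0 at both doses, against 3.70, 1.78, 2.78 and 2.69 TPM in DMSO from 6 to 10 reads, and the call was lost with averaged DMSO pairs or without either dose. WT161 had the H3 gene HIST1H3E called down (-1.30, SE 0.437, adjusted p = 0.0185; 5.2% of all genes were called down). HIST1H3E was at 1.09 and 0.387 TPM with the low and high dose, from 2 and 1 reads, against 2.64 to 3.73 TPM, and the call was lost with averaged DMSO pairs, without the high dose, and against the compounds of the same flow cell (-0.80).

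No member was called by limma for the 15 compounds with no row named above as called, SGC-CBP30 included. The share of all genes called in either direction was 7.44% for MC1568, 2.33% for Cpd50, 1.28% for GSKLSD1, 0.776% for LSD-690, 0.489% for LSD-519 and 0.257% for PFI-2. It was 0.122% for OJI-1 and for SGC0946, 0.0978% for EZ-005, 0.0856% for UNC1999, 0.0611% for Merck60, 0.0489% for UNC-1215, 0.0245% for PFI-3 and 0.00611% for GSKJ4. Between 0 and 9 of the 45 members per compound had an unadjusted p below 0.05, and limma-voom called 1 member for MC1568 and none for the others. PFI-2, with 9 members at an unadjusted p below 0.05, had the lowest group median of the screen: at 10 µM 9 of the 26 rows lay at least 2-fold below DMSO (1.77% of all genes) and the median was -0.64, against 0.05 for all genes, and at 1 µM 2 rows did (1.54%), with a median of -0.38. HIST1H1C passed the p threshold for PFI-2 (-0.78, SE 0.192, adjusted p = 0.0274) without reaching the fold. The PFI-2 samples ran on the flow cell without DMSO, and the 1 µM library was the shallowest, at 5737939 reads. At 10 µM HIST1H1C differed from DMSO by -0.567 with PFI-2. On that flow cell it was at -0.754 with SGC0946, -0.647 with UNC0638 and -0.644 with UNC1999. At 10 µM only Bromosporin (1.489), LSD-519 (0.135) and LSD-690 (0.002) lay above DMSO there. The 10 µM PFI-2 library is another of the 3 with mostly even low read numbers. The compounds directed at particular HDACs had group medians at 10 and 1 µM of -0.01 and -0.23 (Merck60), -0.21 and -0.40 (OJI-1), -0.03 and -0.12 (MC1568) and 0.14 and -0.25 (WT161), and LAQ824 had 0.78 and 0.90 at its lower doses of 5 and 0.5 µM.

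**Figure D4:**
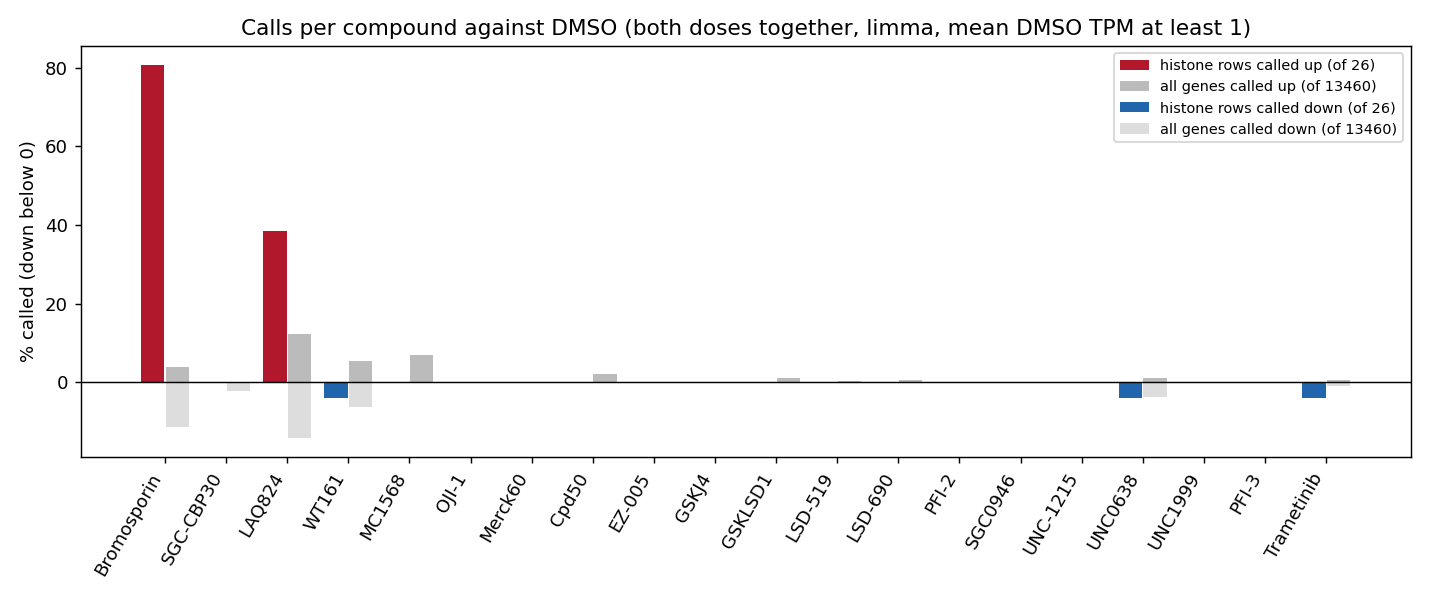
Percent of rows called up (above 0) or down (below 0) for each of the 20 screen compounds, both doses together, among the 26 histone rows (coloured) and all 13460 genes (grey) with a mean DMSO level of at least 1 TPM. Bromosporin called 21 and LAQ824 10 of the 26 rows up, against 3.83% and 12.3% of all genes.

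Taken over the 18 compound means, no member differed between the acetylation and methylation axes at an adjusted p under 0.05, nor did any gene (0.0%), with 12 of the 26 and 18 of the 45 members, and 30.6% of all genes, at an unadjusted p below 0.05. The smallest p was that of HIST1H4D, a row tested only through treated samples, higher by 1.03 in the acetylation axis (SE 0.281, adjusted p = 0.0569, 7 against 11 compounds, limma). HIST1H3H (0.96, adjusted p = 0.0577), HIST1H2BD (1.07, adjusted p = 0.0622), HIST3H2BB (1.06, adjusted p = 0.0657) and HIST1H2BH (0.96, adjusted p = 0.0707) followed. With the high doses alone 2 of the 26 members passed (3 of the 45, while 5.2% of all genes were called higher in the acetylation axis).

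N1302 was compared with the single DMSO sample of its own experiment, so there is no replicate check. The summed level was 843.4 TPM with N1302 and 307.7 TPM with DMSO. Of all 73 rows, 19 were at least 2-fold higher and 2 at least 2-fold lower (11.6% and 19.3% of all genes tested), and of the 26 rows with screen DMSO expression 14 were higher (10.9%). The median over the 26 was 1.04, against -0.24 for all genes, and median-ratio scaling moved the median of all genes by 0.30 upward. HIST3H2A stood out at 78.8 TPM against 5.42 TPM, a log2 difference of 3.64, but 5.42 TPM is the lowest of the 8 DMSO samples, the others lying between 10.1 and 24.8 TPM. HIST1H1C was at 288.7 TPM, the highest of all 52 libraries, against 109.6 TPM in its own DMSO sample, which itself lay above the 25.6 to 61.8 TPM of the other DMSO samples. HIST1H3H was at 12.3 against 2.10 TPM (2.10), HIST3H2BB at 5.66 against 0.880 TPM (1.82) and HIST1H2AC at 131.3 against 39.7 TPM (1.70). HIST1H2BE was at 2.94 TPM and listed at 0 in the DMSO sample. At the other end HIST1H3E was at 1.54 against 5.82 TPM (-1.42), and HIST1H2AK was listed at 0 against 1.73 TPM. HIST1H3F (-0.63), HIST4H4 (-0.53) and HIST1H2AB (-0.50) were lower by less than 2-fold.

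Entinostat inhibits HDAC1/2/3, and its 3 times, each with 1 sample and its own DMSO sample, carry no test. At 1 h the summed level was 140.8 TPM against 152.4 TPM in DMSO, and of the 73 rows none was 2-fold higher and 2 were lower (0.66% and 0.581% of all genes). At 6 h it was 242.2 against 172.6 TPM, with 2 rows higher and none lower (5.13% and 0.947%), both among the 26 (4.32%): HIST1H2BD at 32.5 against 12.7 TPM and HIST1H2AC at 25.9 against 10.5 TPM. At 24 h it was 561.7 against 167.7 TPM, with 15 rows higher and none lower (16.4% and 6.06%), 12 of them among the 26 (13.8%). The medians over the 26 rows were -0.09, 0.32 and 0.95.

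At 24 h HIST1H2BG, the row furthest from DMSO, was at 49.0 against 7.84 TPM, HIST1H2BD at 81.4 against 14.4 TPM (2.42), HIST1H4H at 27.2 against 4.96 TPM (2.24) and HIST1H1C at 150.8 against 34.5 TPM (2.10). At 6 h HIST1H1C was at 41.2 against 32.2 TPM, a log2 difference of 0.35. HIST1H1E was at 5.99 against 0.591 TPM (2.14). The row with the lowest difference was HIST1H4A, listed at 0 against 0.623 TPM. HIST2H2BA was listed at 0 against 0.150 TPM, HIST2H2AC was at 5.57 against 6.55 TPM (-0.20), HIST1H4B at 0.471 against 0.650 TPM (-0.17), and HIST1H2BB was listed at 0 in both.

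**Figure D5:**
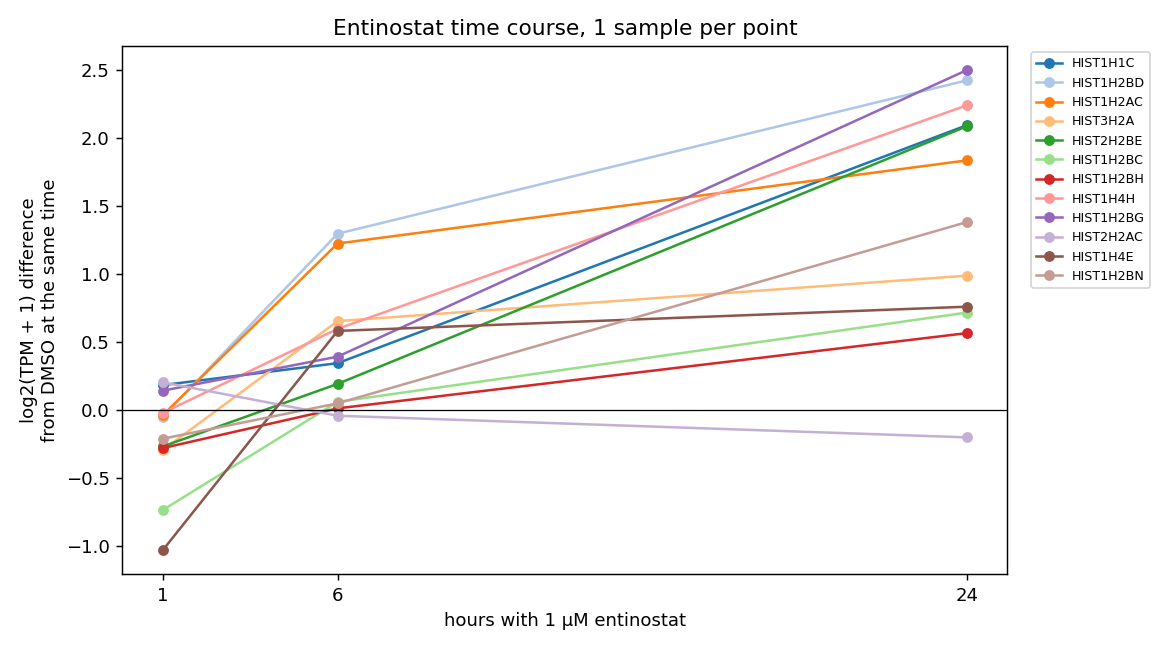
Difference in log2(TPM + 1) from DMSO of the same time (vertical axis) at 1, 6 and 24 h of 1 µM entinostat (horizontal axis, hours) for the 12 histone rows with the highest level in screen DMSO, 1 sample per point. At 24 h, 11 of the 12 lie above 0 and HIST2H2AC lies at -0.20.

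Of 18 S-phase genes (MCM helicase subunits, RRM1, RRM2, PCNA and others), 13 lay at least 2-fold below DMSO at 24 h of entinostat (6.06% of all genes tested). Their median was -1.56, with MCM5 lowest at -2.39. None did at 6 h (0.947%). With Bromosporin, MCM5 alone of the 18 was called, and it fell (-1.66, SE 0.233, adjusted p = 6.21e-06, limma, with 9.18% of all genes called down). With LAQ824 the licensing factor CDC6 was called up (1.01, SE 0.140; 14.0% of all genes were) and TYMS (-1.52) and MCM7 (-1.20) down (11.7%), and with WT161 TYMS was called down (5.2%). The part of cell-cycle position in the histone levels was not tested.

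Of 30 genes for histone mRNA synthesis and 3′ end processing, Bromosporin had none called by limma (4.21% of all genes were called up and 9.18% down). Among the 30, 16 were at an unadjusted p below 0.05, a count without its share over all genes, and the median was -0.08. LAQ824 had HINFP, a transcription factor of H4 genes (1.28, SE 0.214), and the cleavage factor subunit CLP1 (1.04, SE 0.163) called up and CPSF2, a subunit of the cleavage complex, called down (-1.43, SE 0.188). Of all genes, 14.0% were called up and 11.7% down with LAQ824. At 10 µM Bromosporin, 2 of the 30 lay at least 2-fold below DMSO (2989 of all 16359 genes tested), CPSF2 the furthest at -1.39. MIF4GD, which joins SLBP to the translation machinery, was called up for LSD-519 (1.14, SE 0.188) and LSD-690 (1.06, SE 0.188), compounds that had no histone row called. With 1 sample each and no test, MIF4GD was also the highest of the 30 at 6 h (1.125) and 24 h (2.077) of entinostat. The same held at 10 µM MC1568 (1.12). SLBP itself was at 228.3 to 249.0 TPM in screen DMSO, 286.3 and 403.8 TPM with low and high Bromosporin, 466.2 and 491.3 TPM with low and high LAQ824, and 99.2 against 196.8 TPM at 24 h of entinostat. With N1302, 10 of the 30 were at least 2-fold below DMSO (19.3% of all genes tested), CPSF2 the furthest at -2.35, and SLBP was the highest at 1.18. Of 12 histone genes outside the clusters, whose mRNAs are made in a polyadenylated form (H2AFX also in a stem-loop form), 11 were tested, H3F3A being the exception. Bromosporin raised H1F0 (1.78, SE 0.175) and H1FX (1.18, SE 0.174), both linker histones, and lowered H2AFY2 (-1.93, SE 0.348), a macroH2A gene. LAQ824 likewise raised H1F0 (2.47, SE 0.175) and lowered H2AFY2 (-3.45, SE 0.348), as did WT161, and Cpd50 lowered H2AFX (-1.04, SE 0.199) and CENPA (-1.23, SE 0.170).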

How the data were processed

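RNA was sequenced from 52 samples in paired-end, poly-A selected libraries. The authors aligned reads to hg19 with STAR. For gene-level TPM the paper's methods name RSEM, whereas the submitters' processing notes name STAR and edgeR. Which program gave the deposited values is not settled here. The deposited TPM sum to 1000000 in each sample. The strand setting of the counting was not given in the sources used here. TPM values were used as deposited, on the log2(TPM + 1) scale. Whole reads, recovered from the TPM of all 23645 genes above 0 within 0.001, gave the depth. Genes at 1 TPM or more in at least 2 samples were tested (16359) with limma 3.58.1 in R 4.3.3 (trend, two-sided, Benjamini-Hochberg), 1 coefficient per compound over both doses and 23 residual degrees of freedom. The study's methods treat both samples of a compound as replicate experiments and the DMSO samples as 4, but the labels give them different doses and do not say that samples were separate cultures, so p-values measure the spread between these samples, dose included. The script was tested on simulated data. N1302 and entinostat, with 1 sample per group, got no test; fits without 1 dose of a compound took the spread from the other groups. Named rows were the 12 highest in DMSO, up to 6 called per compound and direction, the 5 furthest either way for N1302 and entinostat at 24 h, and the 5 smallest p between axes; HIST1H3B, HIST1H2AE, HIST1H2BO and the other rows named beyond these were chosen after their values were seen. The members and all gene lists were chosen with earlier results of these data known. DMSO replicate numbers were not used as pairs (correlation 0.072).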

Additional observations from a re-analysis of the deposited data

Results flagged for a closer look

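Among the 30 named members, 2 had 1 of the 4 screen DMSO samples far from the other 3, where chance alone flags about 1 in 20 such groups. HIST1H4A was at 0.439 TPM, from 1 read, in 0.1% DMSO replicate 1 and listed at 0 in the other 3, and the member was not called for any compound. A lone read against 0 in the others is always flagged, so the chance rate does not hold for HIST1H4A. HIST1H4E was at 7.268 TPM in 0.2% DMSO replicate 1 and between 3.90 and 4.21 TPM in the others.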

How the results depend on the processing

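The counts of called members changed with the filter, the fold and the samples. Counts in this paragraph, those of members past a fold with entinostat included, are given without the share over all genes. They describe the settings and are not read as results about the group. Over genes with a mean TPM of at least 5, Bromosporin called 8 members, LAQ824 6, UNC0638 1, Trametinib and WT161 0, and the axis comparison 1. Over genes with a mean DMSO TPM of at least 1 (added after the data were seen, as were averaged DMSO pairs and leaving out the 3 even-count libraries), Bromosporin called 21, LAQ824 10 and UNC0638 1; these filters test fewer members. With DMSO pairs averaged, Trametinib, UNC0638 and WT161 called 0. Without the 3 even-count libraries Bromosporin called 17, and SGC-CBP30 and UNC1999 1 each. With pseudocount 0.1, EZ-005 called 2, PFI-2 1 and WT161 4, and entinostat had 12, 12 and 28 members past 2-fold at 1, 6 and 24 h; at 1.5-fold these were 6, 15 and 27. Fitting only a compound's own samples and DMSO, EZ-005 called 3, PFI-2 2, Merck60 and UNC1999 1, and UNC0638 0. Within the flow cell, MC1568 and UNC0638 called 1 and WT161 0, and no such value could be had for GSKLSD1 and UNC-1215. Without a fold threshold PFI-2 called 1 and WT161 2, with median-ratio scaling WT161 2, with no filter UNC0638 1, with limma-voom MC1568 1 and UNC0638 4, and with high doses alone the axis comparison 3. Leaving out 1 sample at a time (a lone dose is assumed to vary like the other groups) gave 18 (without the high dose) to 38 for Bromosporin, 7 (without the low dose) to 17 for LAQ824, 0 to 9 (without the low dose) for SGC-CBP30, 0 (without 0.2% DMSO replicate 1) to 3 for UNC0638, 0 (without the high dose) to 2 (without either 0.1% DMSO sample) for WT161, 0 (without either dose) to 1 for Trametinib, and 0 to 1 for OJI-1 (1 without the high dose) and PFI-2 (1 without the low dose). The replicate block left the count between DMSO concentrations at 0. Of 274 other-setting values for 16 named changes, 248 kept direction and call, 26 lost the call and 0 turned direction. The causes were not tested. Rows with few reads per DMSO sample are measured with little precision.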
